A study of Mus musculus with 8 samples.

Results

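Genes for axon guidance ligands and their receptors were examined in the hippocampus of FTY720-treated and vehicle-treated SCID mice. Members were taken by gene symbol: semaphorins of classes 3 to 7, plexins, neuropilins, Slits, Robos, netrins with netrin-G proteins, Unc5 receptors, Eph receptors of types A and B, and ephrins A and B. Of 12393 genes measured, 59 matched these patterns, 33 of them ligands and 25 receptors. The remaining match, Unc50, is a Golgi protein that shares only the letters of its symbol with the netrin receptors and is counted apart. Other genes of these families, such as Robo2, Plxnb1, Ephb1 and Ephb2, were not analysed here.

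SCID mice have no functional B or T cells. All 8 animals were 12 weeks old and male, and all went through contextual fear conditioning. FTY720 (fingolimod, a sphingosine analogue that acts on sphingosine-1-phosphate receptors once phosphorylated) was given by mouth in saline at 1 mg/kg on 3 days to 4 mice (replicates 1, 4, 5 and 6). The other 4 (replicates 13 to 16) received oral saline as vehicle for the same time. Tissue came from single mice, 17 hours past the final dose and 1 hour past the consolidation test, and each hippocampus gave 1 Affymetrix 3' expression array. Values are log2 probe set signals. Each gene was read from its brightest probe set, and differences are FTY720 minus vehicle with the standard error (SE) of a limma fit over all genes.

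Axon guidance proteins steer growing axons and, in the adult brain, also act at synapses, in vessels and in glia. Secreted class 3 semaphorins bind neuropilins, which signal through plexins, while most other semaphorins bind plexins directly. Slits act through Robo receptors, netrins through Dcc and Unc5 receptors, and the membrane-bound ephrins through Eph receptor tyrosine kinases. In the hippocampus these systems are known for laying out mossy fibre and entorhinal projections and for shaping dendritic spines.

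Array medians lay between 6.68 and 6.72, but vehicle 15 and vehicle 16 stood apart. Vehicle 15 correlated least with the remaining arrays (median 0.994), and vehicle 16 had the steepest loss of 5' signal in the Gapdh control. Its 5' minus 3' value was -1.46, against -1.18 to -1.07 in the other vehicle mice and -1.08 to -0.80 in FTY720 mice. As this value differed between the groups, a fit with it as a covariate cannot fully tell it apart from treatment. Marker genes of tissue next to the hippocampus were also uneven. Thalamus and habenula markers (10 of 10 listed genes measured) had list means of -0.52 to -0.28 in FTY720 mice and -0.37 to 1.40 in vehicle mice, as deviations from the 8-mouse mean, with 1.40 in vehicle 15. Striatum markers (7 of 10) ranged over -0.32 to -0.20 in FTY720 mice and -0.28 to 1.20 in vehicle mice, and oligodendrocyte and myelin markers (9 of 14) over -0.32 to -0.08 in FTY720 mice and -0.06 to 0.37 in vehicle mice. Choroid plexus markers (7 of 9) varied most in both groups, over -1.35 to 0.96 in FTY720 mice and -1.03 to 1.51 in vehicle mice. Of the hippocampal neuron markers 7 of 11 were measured, with Neurod6 at a mean log2 level of 10.49, Wfs1 at 9.87 and Dsp at 9.11, while the probe set of Prox1 was dim (3.29). Since each array holds whole tissue, fewer cells of a type and less RNA per cell cannot be told apart.

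Setting FTY720 against vehicle asks which guidance transcripts differ between drug-treated and saline-treated animals after the memory test. No member and no gene passed an adjusted p of 0.05 (limma with Benjamini-Hochberg adjustment over 12393 genes, lowest adjusted p = 0.536). At an unadjusted p under 0.05 there were 6 members, 5 higher and 1 lower in FTY720 mice, which is 10.2% of the 59 against 6.64% of all genes (3.86% higher and 2.78% lower). These were the ephrin gene Efna3, the semaphorin genes Sema3a, Sema3e and Sema4b, the Slit gene Slit2 and the neuropilin gene Nrp1. The 4 FTY720 values lay entirely above or below the 4 vehicle values in 1 member, Efna3, or 1.69%, against 4.49% of all genes (2.72% higher and 1.78% lower). Without FTY720 6 the count of 6 became 1, again Efna3, where 5.16% of all genes passed. The median difference of the members was 0.03 and that of all genes 0.007, and 35 members were on the higher side (59.3%, against 53.5% of all genes). In 56 of the 59 the 95% interval of the difference stayed within 1.5-fold in both directions, the exceptions being Sema3a, Ntn1 and Ntng1. Of the members 29 had a mean level below the median of all genes.

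**Figure D1:**
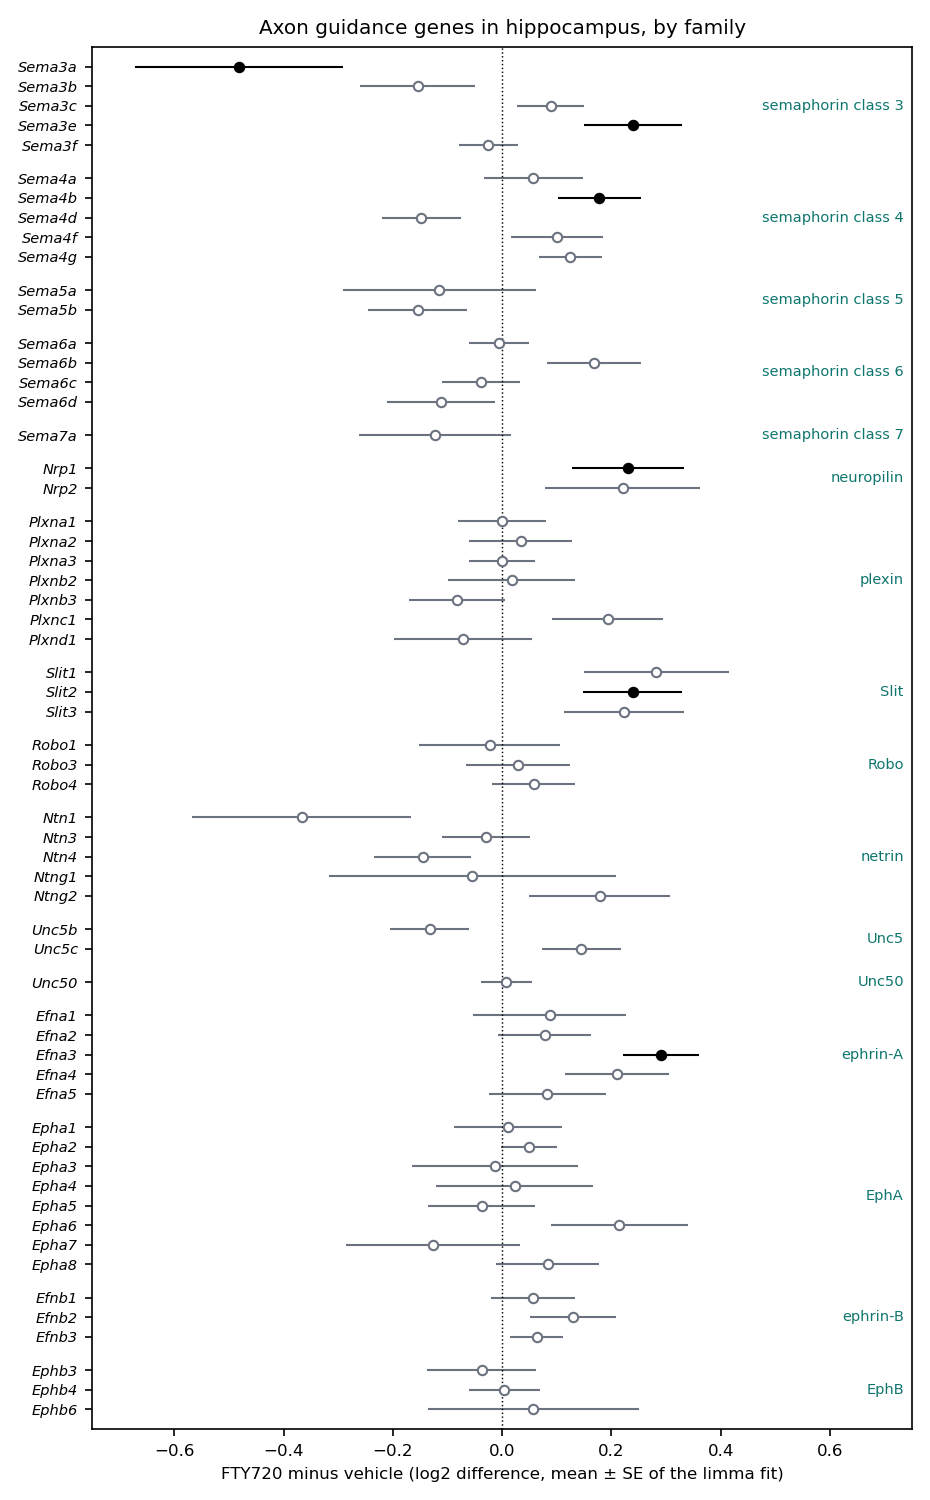
Difference between FTY720 and vehicle for each of the 59 members (x axis, log2 units, bars ± SE of the limma fit, n = 4 mice per group), grouped by family down the page. Filled points mark the 6 members at an unadjusted p under 0.05, of which Sema3a is the only 1 on the lower side, and the 3 Slit, 5 ephrin-A, 3 ephrin-B and 2 neuropilin genes all lie right of 0.

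The ephrin-A genes encode ligands held on the membrane by a lipid anchor, and all 5 measured members had a higher mean in FTY720 mice (differences 0.08 to 0.29). Efna3 had log2 values of 7.42, 7.45, 7.52 and 7.60 in FTY720 mice and 7.33, 7.22, 7.04 and 7.24 in vehicle mice. Every FTY720 value was above every vehicle value, with the lowest in vehicle 15. The FTY720 mean was 7.50 ± 0.08 and the vehicle mean 7.21 ± 0.12 (SD, n = 4 each), a difference of 0.29 (SE 0.07) or 1.22-fold, with a limma adjusted p of 0.634. This value passed an unadjusted p of 0.05 under all 17 alternative settings and ranged over 0.22 to 0.33. These settings reuse the same mice and are no independent check. Efna3 has only 1 probe set, so settings that change the choice of probe set could not alter its value. Efna4 followed at 0.21 (SE 0.09), with 5.12 to 5.55 in FTY720 mice and 4.96 to 5.21 in vehicle mice, so that the groups overlapped. Efna1, Efna2 and Efna5 stood at 0.09, 0.08 and 0.08, each smaller than its SE of 0.09 to 0.14. Vehicle 15 had the lowest mean over the 5 genes, -0.29 relative to the mean of the 8, and without this mouse 3 of the 5 were on the higher side.

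Their receptors, the EphA tyrosine kinases, had 5 of 8 members on the higher side, none at an unadjusted p under 0.05 and a median of 0.02. This balance turned when arrays were left out, with 3 of 8 higher and a median of -0.03 without vehicle 15, -0.06 without vehicle 16 and -0.14 without both. With the Gapdh 5' minus 3' value as a covariate 2 of 8 were higher, and Epha7 stood at -0.47 (limma unadjusted p = 0.0126) against -0.13 in the fit without it. Epha6 had the largest difference at 0.21 (SE 0.13), which was 0.11 without vehicle 16 and 0.004 without both mice, and Epha2 stood at 0.05 (SE 0.05). Epha4, the receptor that binds ephrins of both types and sits on hippocampal dendritic spines, had 10.24, 10.49, 10.14 and 10.16 in FTY720 mice and 10.56, 10.43, 9.94 and 10.01 in vehicle mice. Its vehicle values split, with vehicle 13 and 14 above vehicle 15 and 16, and the difference was 0.02 with all mice and -0.24 without the last 2. The family mean was highest in vehicle 13 (0.20) and lowest in vehicle 16 (-0.21), and FTY720 mice lay between -0.07 and 0.10. The hippocampal neuron marker list was likewise highest in vehicle 13 (0.38) and lowest in vehicle 16 (-0.34), and its part in the EphA values was not tested.

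Ephrin-B ligands, which span the membrane, had small positive differences in all 3 genes, and in 2 of 3 when probe sets were averaged. Efnb1 stood at 0.06 with its brightest probe set, while its other probe sets gave -0.04 and -0.07. Efnb2, which also marks arterial endothelium, stood at 0.13 (SE 0.08), or 0.23 without vehicle 15 and 16, but its 3 other probe sets gave 0.14, 0.03 and -0.07. Efnb3, a midline and myelin-associated ligand, stood at 0.06 (SE 0.05). The EphB receptors Ephb3, Ephb4 and Ephb6 lay between -0.04 and 0.06. Ephb6, a receptor without kinase activity, ran from 7.37 to 7.57 in FTY720 mice and from 6.77 in vehicle 15 to 7.85 in vehicle 16, so its SE was 0.19.

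Among the secreted class 3 semaphorins, 2 members had an unadjusted p under 0.05, in opposite directions. Sema3a, the classical growth cone collapsing ligand, had 7.63, 7.35, 7.63 and 7.38 in FTY720 mice and 7.49, 7.77, 8.14 and 8.51 in vehicle mice. The groups overlapped through vehicle 13, and vehicle 15 and 16 were the highest of the 8. The difference was -0.48 (SE 0.19, limma adjusted p = 0.726), the largest of all members, but -0.13 without those 2 mice and -0.09 when the Gapdh 5' minus 3' value entered the fit. Vehicle 15 and 16 were also the mice with the highest striatum marker means (1.20 and 0.34). Vehicle 16 had the highest neocortex mean (0.51) and vehicle 15 the lowest (-0.31). What part these had in the Sema3a value was not tested. The 2 other, dimmer probe sets of Sema3a gave -0.13 and -0.19.

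Sema3e, a ligand that acts through Plxnd1 and can do so without a neuropilin, had 8.68, 9.02, 8.97 and 9.09 in FTY720 mice and 8.73, 8.63, 8.62 and 8.83 in vehicle mice. Of the FTY720 mice 3 were above every vehicle mouse and FTY720 1 was not. Its difference was 0.24 (SE 0.09, limma adjusted p = 0.723), and 0.26 without vehicle 15 and 16. All 3 probe sets of Sema3e gave close values of 0.24, 0.28 and 0.24, and in the probe set of intermediate brightness the groups did not overlap. Sema3b (-0.15), Sema3c (0.09) and Sema3f (-0.03) had unadjusted p values above 0.05.

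**Figure D2:**
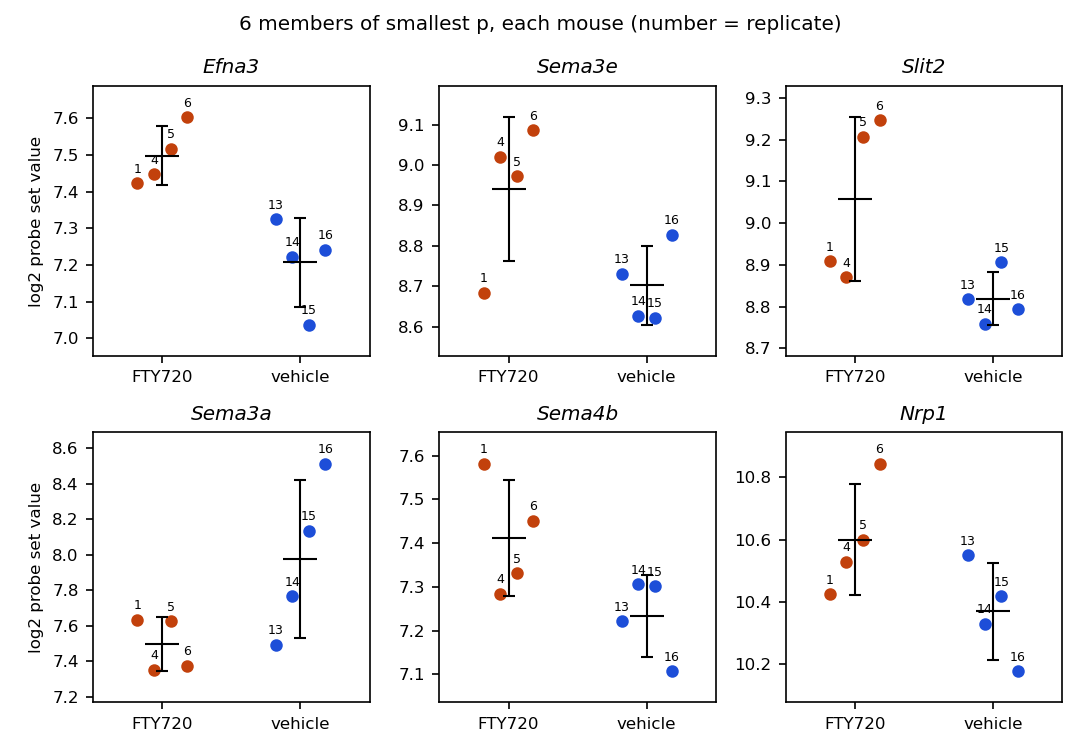
Log2 probe set value (y axis, own scale in each panel) of the 6 members of smallest p in each of the 4 FTY720 mice (left, orange) and 4 vehicle mice (right, blue), with replicate numbers and group mean ± SD in black. The groups are fully apart in Efna3 only, and in Sema3a the vehicle mice spread over 7.49 to 8.51.

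In class 4, whose members span the membrane and bind B-type plexins, 4 of 5 genes were on the higher side. Sema4b had 7.58, 7.28, 7.33 and 7.45 in FTY720 mice and 7.22, 7.31, 7.30 and 7.11 in vehicle mice, overlapping through FTY720 4. The difference was 0.18 (SE 0.08, limma adjusted p = 0.743), and the other, dimmer probe set gave 0.08. Sema4g stood at 0.12 (SE 0.06), and Sema4d, which is made by oligodendrocytes among other cells and is known to hold back their maturation, at -0.15 (SE 0.07). The class 5 genes Sema5a and Sema5b stood at -0.12 and -0.15, and class 6 ran from -0.11 for Sema6d to 0.17 for Sema6b. Sema7a, anchored to the membrane by a lipid, stood at -0.12 (SE 0.14). The other probe set of Sema5a gave 0.06 and that of Sema7a 0.07, and those of Sema4d gave 0.08 and -0.04. With probe sets averaged, Sema4d, Sema5a and Sema7a stood at -0.04, -0.03 and -0.03. Over all 17 semaphorins 7 were higher and 10 lower, with a median of -0.03. The count was 9 higher and 8 lower without vehicle 15 and 16, with the Gapdh covariate and with probe sets averaged.

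Both neuropilins, the ligand-binding receptors for class 3 semaphorins, had higher means in FTY720 mice. Nrp1 had 10.42, 10.53, 10.60 and 10.84 in FTY720 mice and 10.55, 10.33, 10.42 and 10.18 in vehicle mice. FTY720 6 was the highest and vehicle 16 the lowest, and the other values of the groups overlapped. The difference was 0.23 (SE 0.10, limma adjusted p = 0.748), 0.15 without FTY720 6 and 0.05 with the Gapdh covariate. The 2 other probe sets of Nrp1 gave 0.34 (SE 0.12) and 0.33 (SE 0.12). Nrp2, which binds Sema3f and patterns mossy fibres, stood at 0.22 (SE 0.14), and at 0.08 without vehicle 16, the lowest mouse at 7.52. Nrp1 is made by vessels as well as neurons. Endothelial markers (7 of 7 measured) had list means of -0.16 to 0.05 in FTY720 mice, where FTY720 6 was lowest, and -0.12 to 0.19 in vehicle mice, and their part in the Nrp1 value was not tested.

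Among plexins, the signalling receptors of semaphorins, 3 of 7 were on the higher side and the median was -0.001, while 6 of 7 were higher with the Gapdh covariate (median 0.11). Plxna1, Plxna2 and Plxna3, the usual partners of neuropilins, lay between -0.001 and 0.03, and Plxnd1, the receptor of Sema3e, at -0.07 (SE 0.13). Plxnb3, which is typical of oligodendrocytes, stood at -0.08 (SE 0.09). Plxnc1, the receptor of Sema7a, differed by 0.19 (SE 0.10, limma adjusted p = 0.778), with 9.28 to 9.57 in FTY720 mice and 8.99 to 9.48 in vehicle mice. It stood at 0.11 without vehicle 16 and at 0.10 with the Gapdh covariate.

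The other 3 probe sets of Plxnc1 all gave larger differences than the brightest, 0.22 (SE 0.06), 0.37 (SE 0.12) and 0.58 (SE 0.08). The last of these, singled out after its values were seen, had 4.96, 4.76, 5.15 and 4.88 in FTY720 mice and 4.38, 4.39, 4.25 and 4.40 in vehicle mice. The groups were far apart in this probe set, whose unadjusted p of 3.49e-05 was the smallest of all 20380 probe sets with 1 gene (limma adjusted p over these probe sets = 0.433). It is dim, with a mean level of 4.65 against 9.35 for the brightest. In the probe set at a level of 6.89 the groups did not overlap either. Averaged over its 4 probe sets, Plxnc1 differed by 0.34. Over all 101 probe sets of the members, 14 had an unadjusted p under 0.05 and in 5 the groups did not overlap, against 6.75% and 4.39% of all probe sets. Of the 14, 8 were not the brightest of their gene. Nrp1, Plxnc1 and Sema3e each gave more than 1 of the 14, so this is no count of separate genes. Where a member had more than 1 probe set, 29 of 42 further probe sets had the sign of the brightest.

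**Figure D3:**
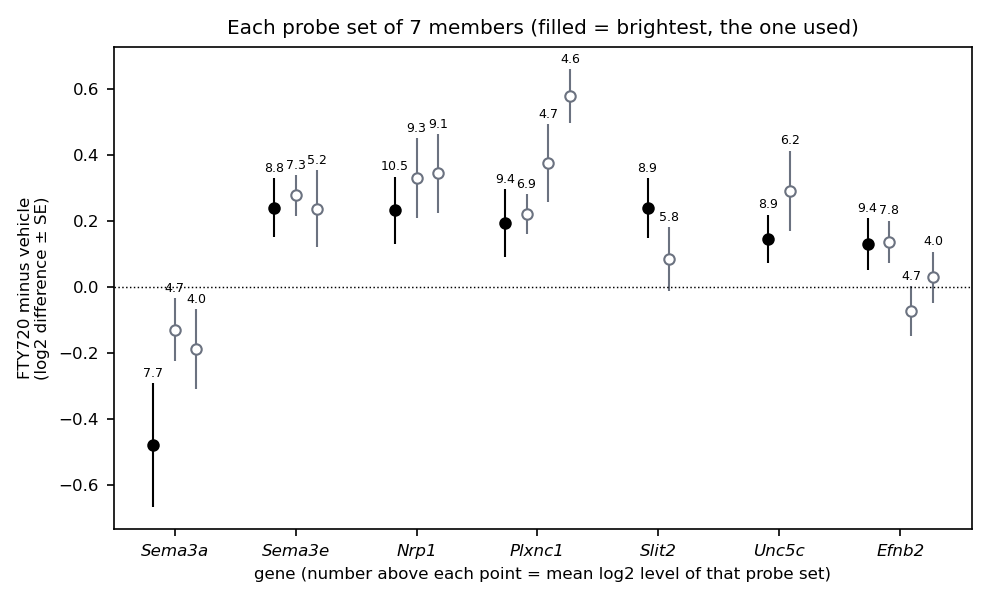
Difference between FTY720 and vehicle (y axis, log2 units, bars ± SE, n = 4 mice per group) for every probe set of 7 members, filled for the brightest. Numbers give the mean log2 level of each probe set. All probe sets of Sema3e, Nrp1, Plxnc1 and Unc5c lie above 0, all 3 of Sema3a below, and the 4 of Efnb2 on both sides.

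The 3 Slit genes, secreted ligands that repel axons through Robo receptors, had differences of 0.28 for Slit1 (SE 0.13), 0.24 for Slit2 (SE 0.09) and 0.22 for Slit3 (SE 0.11). Slit2 had 8.91, 8.87, 9.21 and 9.25 in FTY720 mice and 8.82, 8.76, 8.91 and 8.79 in vehicle mice. FTY720 5 and 6 were well above the rest, and FTY720 4 lay below vehicle 15. Its limma adjusted p was 0.726, the value without vehicle 15 and 16 was 0.27, and its other probe set gave 0.08. Slit1 had 8.69, 8.71, 8.78 and 8.70 in FTY720 mice and 8.71, 8.70, 8.09 and 8.26 in vehicle mice. Vehicle 13 and 14 lay among the FTY720 mice, and without vehicle 15 and 16 the difference was 0.02. Slit3 ran from 6.49 to 6.72 in FTY720 mice and from 6.03 in vehicle 15 to 6.57 in vehicle 14, and its difference was 0.11 without vehicle 15 and 0.07 without vehicle 15 and 16. Robo1 (-0.02, SE 0.13), Robo3 (0.03, SE 0.09) and Robo4 (0.06, SE 0.08), the last a vessel receptor, had differences smaller than their SE. With the Gapdh covariate Robo1 stood at -0.29 and Robo4 at 0.20 (limma unadjusted p = 0.0418 and 0.0331).

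To show the promoters behind the opposite class 3 pair and the leading Slit and ephrin genes, the RefSeq windows of Efna3, Slit2, Sema3e and Sema3a (build GRCm38.p6, 250 bases before to 50 after the gene start, 5' to 3' on the gene's strand) are given here. Efna3 has 2 such windows, of which the most upstream is printed. Capitals mark GC boxes, GGGCGG or its reverse complement CCGCCC, and TATA boxes, TATAAA or its reverse complement TTTATA.
Efna3, chr3:89322890-89323189, strand -: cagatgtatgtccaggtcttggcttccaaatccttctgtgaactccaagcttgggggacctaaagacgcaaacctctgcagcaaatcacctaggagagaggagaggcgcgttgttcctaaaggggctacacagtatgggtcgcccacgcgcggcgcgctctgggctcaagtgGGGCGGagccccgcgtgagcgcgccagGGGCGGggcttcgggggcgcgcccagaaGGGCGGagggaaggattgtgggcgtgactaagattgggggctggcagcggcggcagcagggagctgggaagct
Slit2, chr5:47982905-47983204, strand +: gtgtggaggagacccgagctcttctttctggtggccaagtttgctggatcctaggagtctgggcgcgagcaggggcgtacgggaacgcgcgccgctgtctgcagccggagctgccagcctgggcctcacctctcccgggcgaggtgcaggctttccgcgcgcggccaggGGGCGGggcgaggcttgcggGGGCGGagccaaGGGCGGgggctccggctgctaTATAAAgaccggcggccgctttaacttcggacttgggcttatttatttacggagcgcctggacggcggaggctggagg
Sema3e, chr5:14025026-14025325, strand +: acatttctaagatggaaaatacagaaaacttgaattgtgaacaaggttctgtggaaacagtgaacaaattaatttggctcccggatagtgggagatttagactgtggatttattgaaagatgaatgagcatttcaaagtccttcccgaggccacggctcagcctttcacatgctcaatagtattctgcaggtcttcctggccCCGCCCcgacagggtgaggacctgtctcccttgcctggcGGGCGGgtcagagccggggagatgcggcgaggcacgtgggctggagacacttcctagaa
Sema3a, chr5:13396534-13396833, strand +: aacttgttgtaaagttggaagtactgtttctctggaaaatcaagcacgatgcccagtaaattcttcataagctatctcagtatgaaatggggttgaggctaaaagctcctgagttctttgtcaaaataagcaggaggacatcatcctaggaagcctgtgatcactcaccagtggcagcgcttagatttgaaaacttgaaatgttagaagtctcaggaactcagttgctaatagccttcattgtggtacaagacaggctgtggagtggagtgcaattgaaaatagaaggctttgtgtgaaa

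The windows of Efna3 and Slit2 hold 3 GC boxes each and that of Sema3e holds 2, while that of Sema3a holds none. Slit2 alone of the 4 has a TATA box. The Sema3a window is the poorest in G and C (41.3%, with 2 CpG dinucleotides), against 64.0% and 22 for Efna3, 68.0% and 30 for Slit2 and 50.7% and 11 for Sema3e. A GC box was present in 49 of 65 windows of 52 members (75.4%) and in 35.7% of all 32851 promoter windows, and a TATA box in 2 member windows (3.08%) and in 13.6% of all. The median share of G and C was 64.0% in member windows and 52.7% in all windows. All windows belong to 27025 genes, members included, against 12393 genes measured. These shares therefore do not compare members with the measured genes. A match describes the letters of the window only.

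Netrins, secreted guidance cues, and the netrin-G proteins, which are lipid-anchored relatives at synapses, had lower means in FTY720 mice in 4 of 5 genes, none at an unadjusted p under 0.05. Ntn1 had 6.42, 6.30, 6.27 and 6.36 in FTY720 mice and 6.47, 6.53, 7.44 and 6.38 in vehicle mice. The difference of -0.37 (SE 0.20) rested mainly on vehicle 15 and was -0.12 without it. With the Gapdh covariate Ntn1 stood at -0.60 and Ntn4 at -0.33 (limma unadjusted p = 0.0495 and 0.00398). Ntng1, a marker of thalamic axons, ran from 9.05 to 9.41 in FTY720 mice and from 8.40 in vehicle 16 to 9.94 in vehicle 15. These are also the mice with the lowest and the highest thalamus list among the vehicle mice (-0.37 and 1.40), whose part in the netrin values was not tested. The Ntng1 difference was -0.05 (SE 0.26), 0.18 without vehicle 15 and -0.33 without vehicle 16. Ntn4, a basement membrane netrin, stood at -0.15 (SE 0.09) with all mice and at -0.23 without vehicle 16, at a low level (4.36).

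Of the netrin receptors, Unc5c stood at 0.14 (SE 0.07) and Unc5b at -0.13 (SE 0.07). Unc5c had 8.94 to 9.04 in FTY720 mice and 8.68 to 9.01 in vehicle mice, with vehicle 15 and 16 lowest. The Unc5c difference was 0.03 without vehicle 15 and 16 and 0.07 with the Gapdh covariate. Its other probe set gave 0.29 (SE 0.12). There too vehicle 15 and 16 were lowest, at 5.75 and 5.96, and vehicle 13 at 6.41 lay among the FTY720 mice. Unc50, the symbol match that is no netrin receptor, stood at 0.01 (SE 0.05).

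The 33 ligand genes ran from -0.48 to 0.29 with a median size of 0.12 irrespective of sign, against 0.05 for all genes, and 5 had an unadjusted p under 0.05 (15.2%, against 6.64% of all genes). The 25 receptor genes ran from -0.13 to 0.23 with a median size of 0.05, and 1 had such a p (4%). The median SE was 0.090 for ligands and 0.098 for receptors, against 0.068 for all genes. Without vehicle 15 and 16 the ligands ran from -0.35 to 0.27 and the receptors from -0.31 to 0.19. No test compared the groups of genes, since their members are not replicates. Of 5 members linked to oligodendrocytes (Plxnb3, Sema4d, Sema5a, Sema6a and Efnb3), 4 were on the lower side with a median of -0.08, where 53.5% of all genes were higher. The smallest of these differences was that of Sema6a at -0.006. With probe sets averaged the 5 stood, in the same order, at -0.08, -0.04, -0.03, 0.07 and 0.06. Of the oligodendrocyte and myelin markers 9 of 9 had a lower mean in FTY720 mice, and their part was not tested. Of 5 measured members linked to vessels (Robo4, Ephb4, Efnb2, Plxnd1 and Nrp1), 4 were on the higher side with a median of 0.06, where 53.5% of all genes were higher. Of the endothelial markers 6 of 7 had a lower mean in FTY720 mice.

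**Figure D4:**
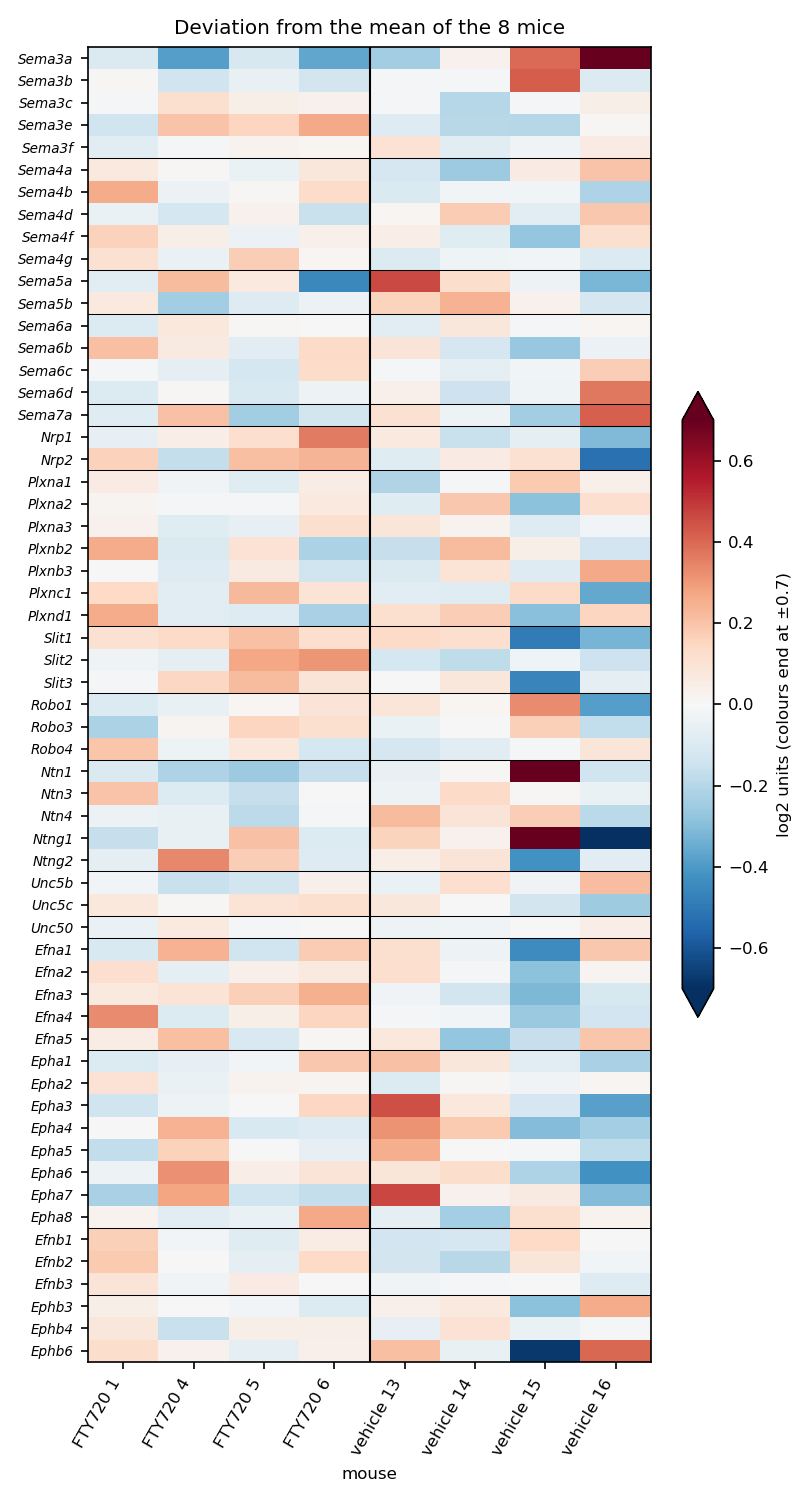
Value of each member (rows, by family in the order of the difference plot) in each mouse (columns, FTY720 left of the line, vehicle right), as the deviation from its mean over the 8 mice in log2 units, red above and blue below. The strongest colours lie in vehicle 15 and 16, for example Ntn1 and Ntng1 in vehicle 15 and Sema3a in vehicle 16.

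Vehicle 15 or 16 held the highest or the lowest value of the 8 mice in 43 of the 59 members (72.9%), against 64.8% of all genes. The SD between mice was larger in vehicle than in FTY720 mice for 41 members (69.5%, against 63.0% of all genes), with a median SD of 0.11 in FTY720 mice and 0.17 in vehicle mice. Without these 2 arrays, which leaves 2 vehicle mice, 7 members had an unadjusted p under 0.05 (11.9%, against 5.7% of all genes). These were Efna3 (0.22), Efnb2 (0.23), Sema3e (0.26), Sema4a (0.21), Ntn1 (-0.16), Ntn4 (-0.23) and Sema5b (-0.28). Of these, Efna3 and Sema3e also had such a p with all mice. Both fits use the same FTY720 mice and share 2 vehicle mice, so they are not independent. Without vehicle 15 and 16 groups did not overlap in 9 members (15.3%), against 14.5% of all genes.

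**Figure D5:**
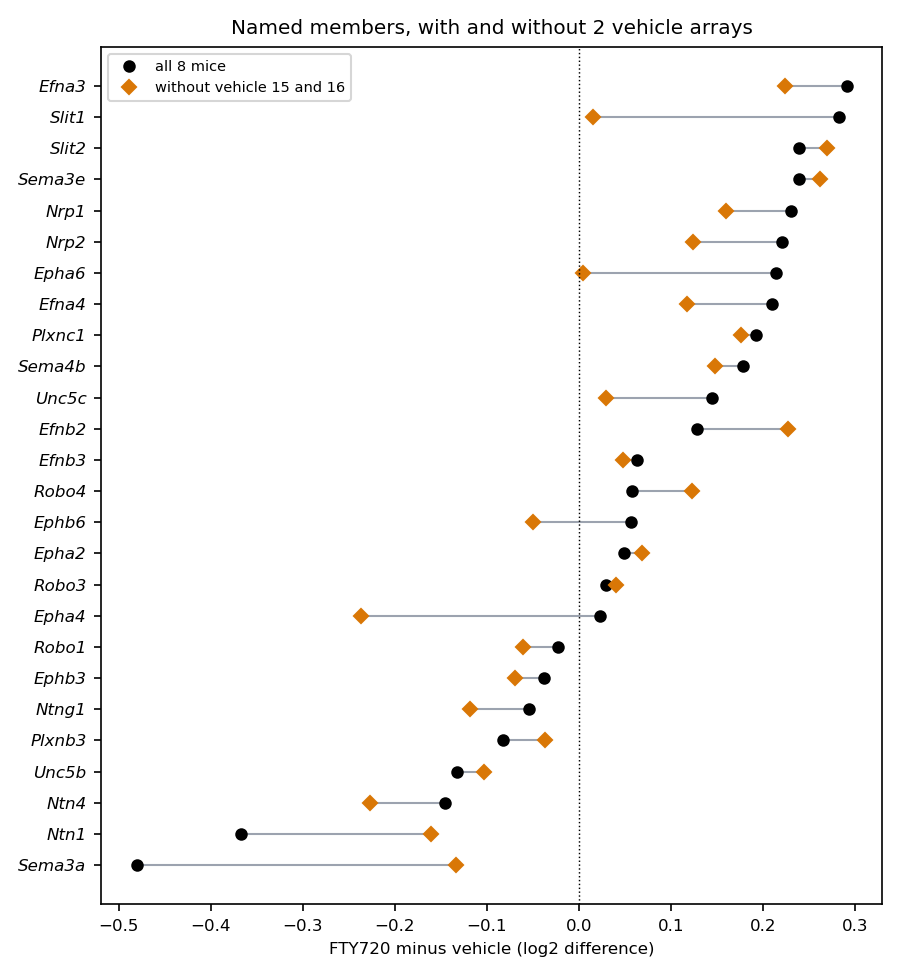
Difference between FTY720 and vehicle (x axis, log2 units) of the 26 named members, with all 8 mice (black circles) and without vehicle 15 and 16 (orange diamonds). Sema3a, Slit1, Epha6, Epha4 and Ntn1 shift most, while Efna3, Slit2, Sema3e, Plxnc1 and Sema4b move by less than 0.1.

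Beyond the families themselves, 11 of 18 listed co-receptors and other ligands were measured, 8 higher and 3 lower, none at an unadjusted p under 0.05. Dcc, the attractive netrin receptor, is named here for its role and stood at -0.11 (SE 0.10). Of 44 listed intracellular effectors 40 were measured, and 5 had an unadjusted p under 0.05 (12.5%, against 6.64% of all genes), 4 higher and 1 lower. Groups did not overlap in 5 effectors (12.5%, against 4.49% of all genes), 2 higher (Srgap3 and Dpysl4) and 3 lower. Named after their values were seen, the lower ones were Rhoa, Cdk5r1 and Cfl1. They stood at -0.13 (SE 0.06), -0.10 (SE 0.05) and -0.07 (SE 0.04). Cdk5r1 encodes an activator of the kinase Cdk5, and Cfl1 the actin-severing protein cofilin. Of the 5 at an unadjusted p under 0.05, 3 encode collapsin response mediator proteins, which relay semaphorin signals to the cytoskeleton. They were Dpysl4 at 0.22 (SE 0.09), Dpysl3 at 0.20 (SE 0.08) and Dpysl5 at 0.12 (SE 0.05). The other listed genes of this protein family, Crmp1 and Dpysl2, did not have such a p. They stood at 0.15 (SE 0.07) and 0.06 (SE 0.07). Srgap3, a Rac-regulating partner of Robo receptors, stood at 0.16 (SE 0.06). Ngef, which encodes ephexin and acts below EphA receptors, stood at -0.33 (SE 0.14), and at -0.09 without vehicle 15 and 16. Without those mice Dpysl4, Dpysl3, Dpysl5 and Srgap3 stood at 0.16, 0.05, 0.15 and 0.10. With the Gapdh covariate these 4 stood at 0.37, 0.05, 0.11 and 0.18, and Ngef at -0.12. Dpysl4 stood at 0.04 when probe sets with IDs ending in _x_at or _s_at were left out. The limma adjusted p of the 5 effectors at an unadjusted p under 0.05 lay between 0.719 and 0.746.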

How the data were processed

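RNA of single hippocampi (100 ng of total RNA per mouse, per the labels) was hybridised to Affymetrix 3' arrays. Deposited by the authors was 1 log2 value per probe set and mouse, the log2 scale being inferred from the range of the values. The submitters' processing notes name RMA, MAS5 and Affymetrix Expression Console, with no version, order or role, so which of them made the values is unknown. The values were used as the authors deposited them, with no filter or pseudocount.

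Of 22690 probe sets, 20380 had 1 gene symbol, 691 several and 1619 none, and 64 control probe sets were left out. The brightest probe set per gene gave 12393 genes. All 59 members matched RefSeq by Entrez ID with no change of symbol, and 52 had a promoter window in the RefSeq table. No 2 arrays were identical.

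Group differences were fitted in R 4.3.3 using limma 3.58.1 (lmFit, eBayes, 8 arrays, no covariate, two-sided, Benjamini-Hochberg adjustment over all genes). A further fit took all probe sets with 1 gene. The main fit was also run on simulated data with independent noise per gene and equal spread in both groups. That setting differs from these arrays, where vehicle mice varied more in most genes. Lists are described by counts and medians. Replicate numbers differ between groups, so none pair. The labels give no batch, and the number of mice limits precision.

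Named are members whose groups do not overlap, the 2 of smallest p and the brightest of each family, the 6 of smallest p, and effectors at an unadjusted p under 0.05. Other members, effectors and probe sets were named after their values were seen. The members, lists and tests were chosen with earlier results of these data known. Alternatives were another normalization, filter, choice of probe set or variance model, array weights, a Gapdh 5' minus 3' covariate and leaving out mice.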

Additional observations from a re-analysis of the deposited data

Results flagged for a closer look

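Ntn1 in vehicle 15 was 7.44, while the other 3 vehicle mice lay between 6.38 and 6.53. The gap was 86.2% of the range of the vehicle group, more than Dixon's 95% critical value for 4 samples. Among 52 groups of 4 mice examined (26 members), this was the only such value, and chance gives about 1 in 20 groups. Vehicle 15 also had the highest thalamus (1.40) and striatum (1.20) marker means, whose part in this value was not tested.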

How the results depend on the processing

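No paired analysis was possible because the groups share no replicate number. The count of genes past an adjusted p of 0.05 was 0 under all 17 alternatives, and the members' median difference lay between 0.004 and 0.07. The count of members at an unadjusted p under 0.05, 6 with all mice, ranged from 1 (without FTY720 6) to 9 (without vehicle 13) when 1 mouse was left out. The count over all genes was 640 without FTY720 6 and 966 without vehicle 13. The count whose groups do not overlap, 1 with all mice, ranged from 1 to 8 when 1 mouse was left out, was 9 without vehicle 15 and 16 and 2 with probe sets averaged. Over all genes the share was 4.49% with all mice and 4.38% with probe sets averaged. It was 7.21% without FTY720 6, 8.11% without vehicle 15, 6.70% without vehicle 16 and 14.5% without vehicle 15 and 16. The share over all genes without FTY720 4, where the count was 8, is not given here. Of all 12393 genes, 823 had an unadjusted p under 0.05, against 506 of the same genes with the Gapdh covariate. When dim genes were left out, 530 of the 6196 genes kept had such a p. Fewer mice make separation easier by construction. Of 517 values for 31 named genes under alternatives, 402 kept sign and side of an unadjusted p of 0.05, 70 lost that p, 24 gained it and 21 changed sign. The changes of sign concerned 8 genes, and their cause was not tested. With array weights Epha4 stood at -0.105 and Ephb6 at -0.0579. Without vehicle 15 and 16 Epha4 stood at -0.237 and Ephb6 at -0.0497. With the Gapdh covariate Epha4 stood at -0.140, Epha6 at -0.0281, Ephb3 at 0.145, Plxnb3 at 0.119 and Robo3 at -0.115. With 1 mouse left out the ranges were -0.0750 to 0.132 for Epha4, -0.139 to 0.0421 for Ephb3, -0.158 to 0.201 for Ephb6, -0.333 to 0.181 for Ntng1, -0.155 to 0.0844 for Robo1 and -0.0238 to 0.107 for Robo3.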
